A study of Homo sapiens with 6 samples.

Results

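The mitochondrial ribosomal protein genes are the nuclear genes whose products, with a pair of mitochondrially encoded rRNAs, build the ribosome inside mitochondria. Members were the rows of the deposited count table whose gene name was MRPL or MRPS followed by a number and at most 1 letter from A to C. This gave 78 genes of 35430 in the table, 49 with an MRPL symbol and 29 with an MRPS symbol. The rule uses symbols alone.

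Mitoribosomes translate only the few proteins encoded by mitochondrial DNA, all of them core parts of the respiratory chain and ATP synthase. Their proteins are made in the cytosol and imported. The large subunit forms peptide bonds and the small subunit decodes the mRNA. Some proteins descend from those of bacterial ribosomes and others were added in mitochondria. The letter in a symbol does not always give the subunit: MRPS30 and MRPS18A sit in the large subunit in structures of the human mitoribosome, and MRPS36 belongs to the 2-oxoglutarate dehydrogenase complex rather than to the ribosome.

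RNA came from LNCaP, an androgen-responsive human prostate cancer cell line, in 3 control libraries, labelled only as control, and in 3 libraries of cells given 0.5 µM palbociclib for 1 week. Palbociclib inhibits the kinases CDK4 and CDK6, which drive entry into S phase. For the controls the labels give neither a vehicle nor a duration, so the drug and the time in culture cannot be told apart. Whether libraries of a group are independent cultures is not stated, so the p-values reflect library-to-library spread that may be technical. Poly(A)-selected libraries held 57082715 to 78117945 estimated counts each. All 9 markers of LNCaP and prostate luminal cells were detected, with a summed level of 5788 to 5827 CPM (counts scaled to library size) in controls and 8875 to 9093 with palbociclib. Of 14 markers of leukocytes, fibroblasts, endothelial, basal and neuroendocrine cells, 11 had a row in the table (COL1A2, CDH5 and TP63 were not analysed here), and they summed to 47.2 to 49.9 CPM in controls and 45.4 to 51.6 with palbociclib. The sum hides movement in both directions: VWF (-0.99, edgeR adjusted p = 0.000463) and PTPRC (-1.33, adjusted p = 0.0267) fell, and CD68 (1.35, adjusted p = 0.00162) and KRT14 (1.18, adjusted p = 0.00919) rose. KRT5, CD3E and PECAM1 were at 0 counts in at least 1 library. Handling-sensitive genes (FOS, JUN, EGR1, HSPA1A and HSPA1B) summed to 311 to 341 CPM in controls and 621 to 665 with palbociclib, the higher sum coming from HSPA1A and HSPA1B, near-identical copies that can share reads. In the same list JUN fell from 73.1 to 53.2 CPM (-0.46, edgeR adjusted p = 0.00627) and FOS fell by 1.3 on the log2 scale (adjusted p = 0.0297). The part of these differences in the results was not tested.

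All 78 members passed the filter on low counts, and the smallest count of any member in any library was 608. Of the 78, 27 were higher with palbociclib and 9 were lower, while 42 did not pass (edgeR's quasi-likelihood test, Benjamini-Hochberg adjusted p under 0.05). Among all 21218 genes tested 38.6% were called, 20.1% higher and 18.5% lower, against 34.6% higher and 11.5% lower of the members. The changes were small. Only 6 members passed with a change of more than 1.5-fold and 1 with more than 2-fold, where 16.2% and 8.27% of all genes tested did. The median log2 fold change was 0.05 over members and -0.027 over all genes tested. The split depended on the scaling. With library size alone 22 members were higher and 18 lower, and with limma on log2(FPKM + 1) 23 were higher and 16 lower. Scaling by library size alone moved the all-gene median by -0.11 on the log2 scale. The number of lower members was 3 without control library 1 and 3 without palbociclib library 2. In bulk RNA fewer cells of a type and less RNA per cell cannot be told apart, and every level here is a share of its library.

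**Figure D1:**
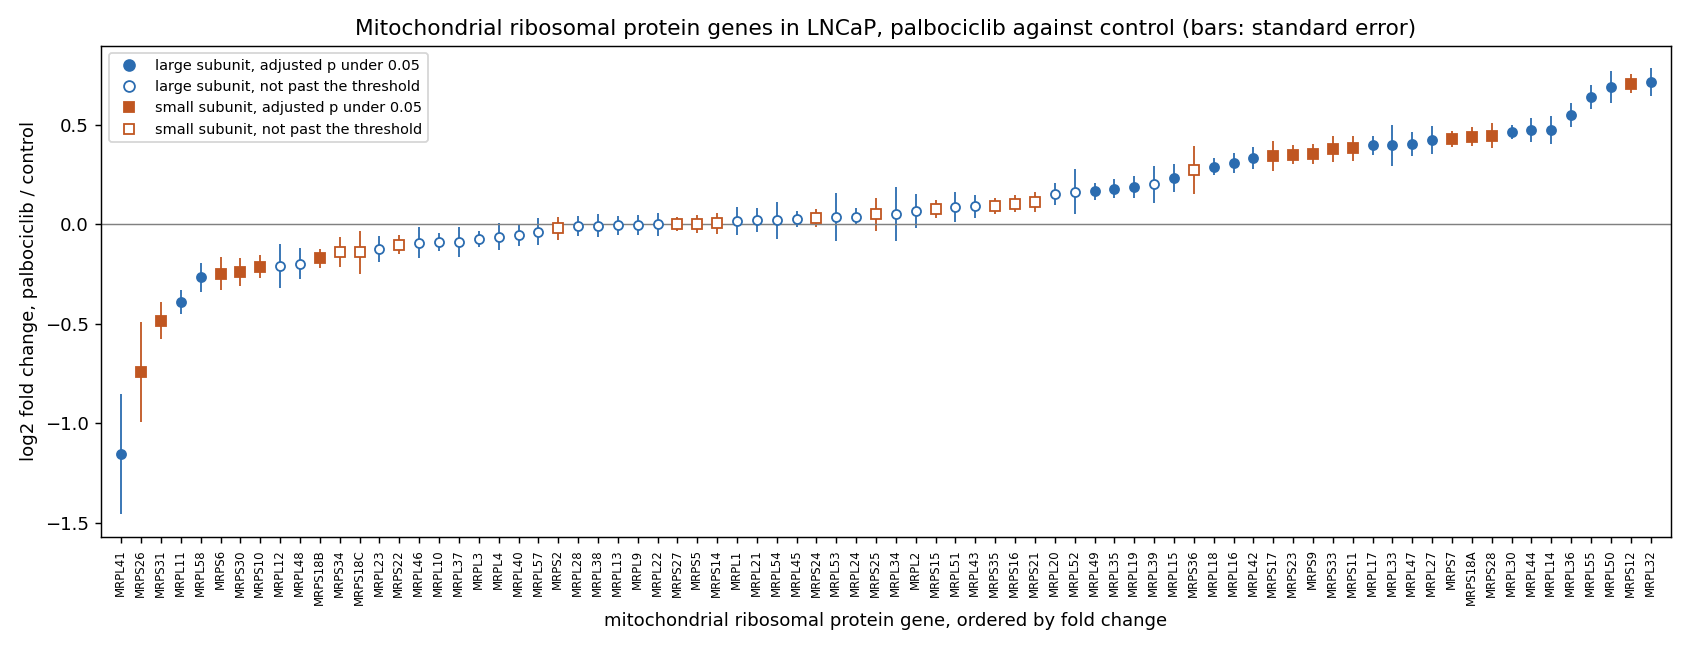
Log2 fold change (palbociclib over control, vertical axis) of each of the 78 members, ordered along the horizontal axis, with the standard error as bars. Circles are MRPL and squares MRPS genes, and filled symbols passed an adjusted p of 0.05. Values run from -1.16 for MRPL41 to 0.71 for MRPL32, and their quartiles are -0.061 and 0.34.

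Large-subunit and small-subunit genes, taken by symbol, had medians of 0.052 and 0.049. Of the 49 MRPL genes 18 were higher and 3 lower, and of the 29 MRPS genes 9 were higher and 6 lower. As shares, 36.7% and 31% were higher, and 6.12% and 20.7% were lower. The lower counts depend on single libraries and on scaling: without control library 1, and likewise without palbociclib library 2, 2 MRPL and 1 MRPS genes were lower, and with library size alone 9 and 9 were. Both medians turned negative with library size alone (-0.059 and -0.063) and on both FPKM scales. No test of the difference between subunits was made, since genes of a complex are not replicates. With MRPS30 and MRPS18A counted in the large subunit and MRPS36 left out, 19 of 51 large-subunit genes were higher and 4 lower, against 8 and 5 of 26 small-subunit genes. The groups of libraries did not overlap for 20 MRPL genes with higher and 5 with lower values, and for 11 and 7 MRPS genes. Over all genes tested such separation was seen upward for 25.7% and downward for 25.3%.

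In summed level the MRPL genes held 2959, 2907 and 3000 CPM in control libraries 1, 2 and 3, and 3224, 3189 and 3124 CPM in palbociclib libraries 1, 2 and 3. The MRPS genes held 1873, 1841 and 1922 CPM in the controls and 2000, 1980 and 1973 CPM with palbociclib. Both sums were higher in every palbociclib library than in every control. The ratio of the MRPL sum to the MRPS sum was 1.58, 1.58 and 1.56 in controls and 1.61, 1.61 and 1.58 with palbociclib. Without TMM scaling (trimmed mean of M-values), the share of all counts taken by the members overlapped between groups, at 0.495% to 0.51% in controls and 0.49% to 0.502% with palbociclib.

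Members were also described by ancestry. Of 46 genes with a bacterial counterpart 20 were higher and 3 lower (median 0.089), and of 30 mitochondrion-specific genes 6 were higher and 6 lower (median 0.01). As shares, 43.5% of the first were higher and 6.52% lower, and 20% and 20% of the second. The second shares are near those of all genes tested, 20.1% higher and 18.5% lower (median -0.0265). The medians stood in the same order within MRPL and within MRPS genes, taken by symbol. Bacterial-type MRPL genes had 14 higher and 1 lower of 30 (median 0.11), and mitochondrion-specific MRPL genes 4 higher and 2 lower of 19 (median 0.02). Among MRPS genes the counts were 6 higher and 2 lower of 16 (median 0.09) against 2 higher and 4 lower of 11 (median -0.10). MRPS30, which sits in the large subunit, is among these 11 and is 1 of the 4 lower. MRPS18A and MRPS36 were in neither class. MRPS18B, related to a bacterial protein but placed by its structural name among the mitochondrion-specific genes, could be classed either way. With it among the bacterial-type genes, the MRPS counts were 6 higher and 3 lower of 17 (median 0.075) against 2 higher and 3 lower of 10 (median -0.051). Over both subunits the lower counts of 3 and 6 became 1 and 2 without control library 1, the same without palbociclib library 2, and 7 and 11 with library size alone. The higher counts of 20 and 6 became 16 and 5 with library size alone, and 17 and 5 on both FPKM scales. The difference between the classes was not tested.

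**Figure D2:**
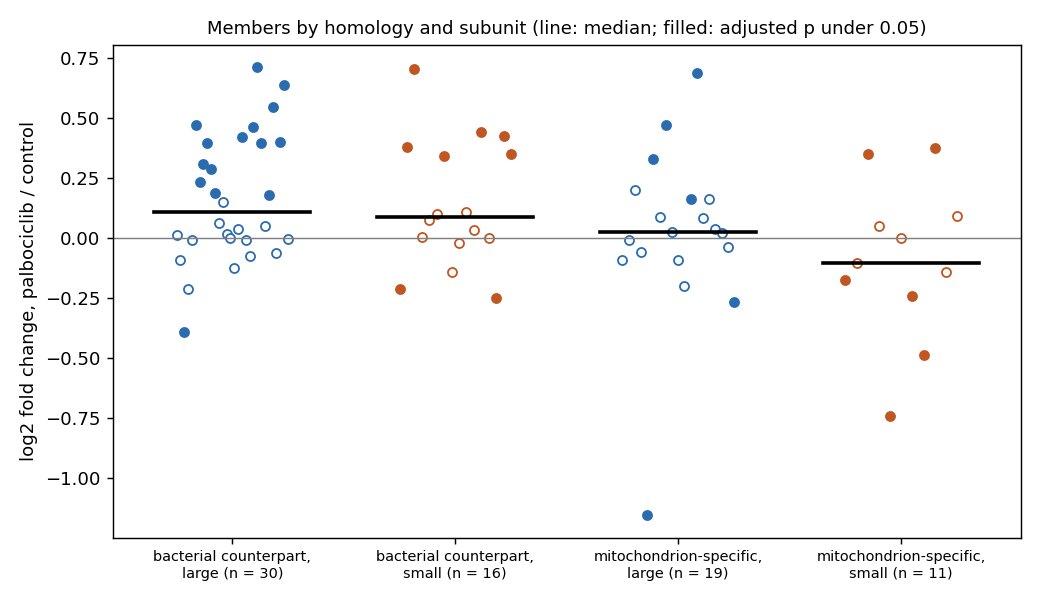
Log2 fold change of members in 4 classes, by bacterial counterpart and by subunit letter, with the median as a line and filled points for an adjusted p under 0.05. The medians from left to right are 0.11, 0.09, 0.02 and -0.10, and the points of all classes overlap.

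In expression per length as deposited, the highest members in controls were MRPL12, MRPL37, MRPL24, MRPL41 and MRPL3, all of the large subunit. MRPL12, a protein of the flexible stalk that recruits translation factors, was at 105.7, 100.1 and 97.3 FPKM (fragments per kilobase of exon, scaled to library size) in control libraries 1, 2 and 3. The median member was at 20.1 FPKM, and the medians of MRPL and MRPS genes were 20.4 and 19.7 FPKM. At the bottom were MRPL46 (3.19 ± 0.071 FPKM; SD, n = 3), MRPS6 (4.07 ± 0.0647) and MRPS18C (4.13 ± 0.565), so that levels spanned 3.19 to 101 FPKM. In GENCODE 44, MRPL46 has 6402 exon bases against 986 in its canonical transcript, MRPS6 4273 against 931 and MRPS18C 4866 against 1550. For MRPL12 both are 1009. MRPS27 ranked 4th of the members by CPM and 66th by FPKM. By CPM, MRPL12 ranked 13th and MRPL41 45th, while MRPL37, MRPL3 and MRPL24 ranked 1st, 2nd and 5th. For the genes named here, CPM divided by all exon bases comes close to the deposited FPKM. The order therefore depends on that length, and an order by canonical transcript length was not tested. MRPL37 (90.1 ± 3.05), MRPL24 (80.8 ± 3.52), MRPL41 (76.4 ± 11.6) and MRPL3 (73.7 ± 1.75) followed MRPL12 (101 ± 4.29), and the range of MRPL41 overlapped those of MRPL24 and MRPL3, which did not overlap each other. MRPS6 and MRPS18C also overlapped. Of these 5, MRPL41 alone passed the test for a change: MRPL12, MRPL37, MRPL24 and MRPL3 had edgeR adjusted p-values of 0.178, 0.391, 0.552 and 0.198. MRPL12 was lower with library size alone and without palbociclib library 1, with adjusted p over all alternatives from 0.0122 to 0.471, and 701 of its 1009 exon bases are shared with another gene on the same strand. MRPL3, the large-subunit protein uL3m, passed as lower with library size alone and on both FPKM scales, with adjusted p from 0.00621 to 0.524.

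Among the rises, the largest was that of MRPL32, a zinc-binding protein of the large subunit (ENSG00000106591, chromosome 7, 42932376 to 42948958 in hg38, the build of every position given). Its level was 56.5, 54.9 and 65 CPM in the control libraries in order, and 93.9, 101.6 and 93.6 CPM in palbociclib libraries 1, 2 and 3. Every palbociclib value lay above every control value, a 1.64-fold difference (log2 fold change 0.71 ± 0.0689 SE; edgeR adjusted p = 6.55e-05).

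MRPS12, the counterpart of a bacterial protein at the decoding centre of the small subunit (ENSG00000128626, chromosome 19, 38930944 to 38933168), rose by about as much. Its level was 41.9, 41.1 and 39.5 CPM in controls and 65.2, 68.8 and 65.6 CPM with palbociclib. The groups were far apart relative to their spread, at 40.8 ± 1.18 and 66.5 ± 2.03 CPM (SD, n = 3; log2 fold change 0.70 ± 0.0475, edgeR adjusted p = 8.52e-06).

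MRPL50, a large-subunit protein found only in mitochondria (ENSG00000136897, chromosome 9, 101387633 to 101398618), went from 34.8, 30.2 and 36.2 CPM to 50.8, 58.1 and 54.1 CPM. Both groups spread by several CPM and did not overlap (0.69 ± 0.0795, edgeR adjusted p = 0.000185). MRPL55, of the large subunit and a counterpart of a bacterial protein (ENSG00000162910, chromosome 1, 228106679 to 228109312), was at 39.7, 37.4 and 37.0 CPM in controls and 61.2, 55 and 61.5 CPM with palbociclib. The groups did not overlap (0.64 ± 0.0594, edgeR adjusted p = 5.35e-05).

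MRPL36, a very small zinc-binding protein of the large subunit, was at 23.6, 24.6 and 24.7 CPM and then at 35.9, 34.1 and 36.5 CPM (0.55 ± 0.0593). For MRPL14, which the anti-association factor MALSU1 binds, values of 18.3, 17.8 and 18.4 CPM became 25.3, 24.1 and 26.2 CPM (0.47 ± 0.0706). In both genes the 3 controls were close together and all below the palbociclib libraries. MRPL44, which resembles an RNase III enzyme, was at 38.5, 36 and 39.2 CPM and at 49.1, 55.6 and 53 CPM (0.47 ± 0.0616). MRPL30 had the tightest groups of these 8, with 77.7, 77.1 and 76.3 CPM in controls and 105.2, 106.4 and 106.9 CPM with palbociclib (0.46 ± 0.0365, edgeR adjusted p = 2.08e-05). Its exons share 564 of 4760 bases with another gene on the same strand, so part of its reads could belong there. All 8 of these rises passed in each of the 14 alternative fits. Of the 27 higher calls 22 did so, and the calls lost in some alternative were those of MRPL15, MRPL19, MRPL33, MRPL35 and MRPL49, named for that reason.

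**Figure D3:**
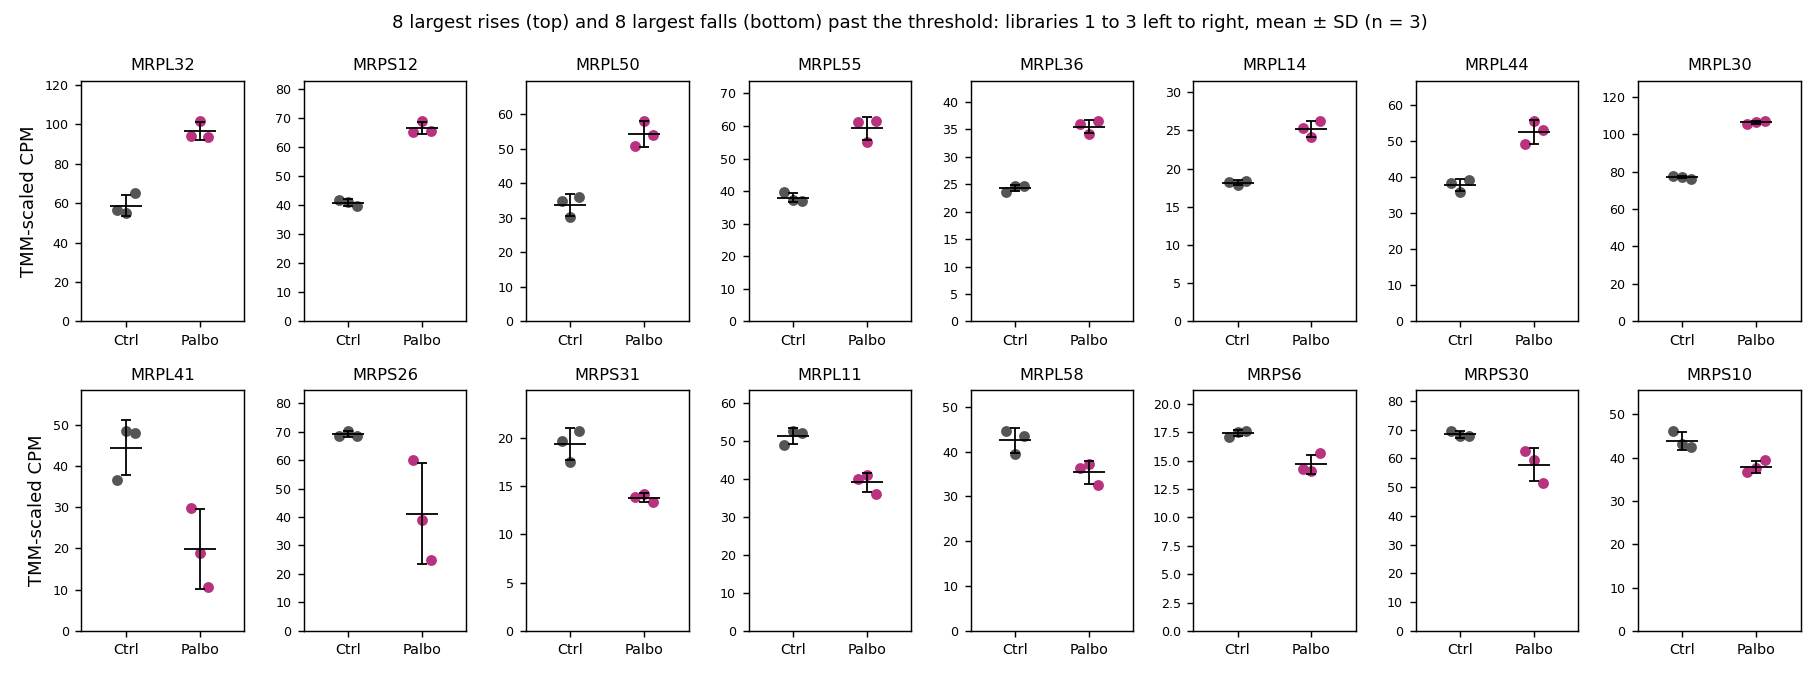
TMM-scaled CPM (vertical axes from 0) of the 8 members with the largest rise and the 8 with the largest fall past the threshold, in libraries 1, 2 and 3 of each group from left to right, with mean and SD (n = 3). The palbociclib points of MRPL41 run from 29.9 down to 10.7 CPM and those of MRPS26 from 60.1 down to 24.8 CPM, whereas the points of the risers lie close together.

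The largest fall was that of MRPL41, a large-subunit protein found only in mitochondria (ENSG00000182154, chromosome 9, 137551879 to 137552555). Control libraries 1, 2 and 3 held 36.7, 48.6 and 48 CPM, and palbociclib libraries 1, 2 and 3 held 29.9, 19 and 10.7 CPM. The groups did not overlap but the palbociclib libraries differed widely from each other. The fold change was 2.23 downward (log2 -1.16 ± 0.301, edgeR adjusted p = 0.015). The call was lost without palbociclib library 2 (adjusted p = 0.0583, over a range of 0.00199 to 0.0583 among alternatives).

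MRPS26, a small-subunit protein without a bacterial counterpart (ENSG00000125901, chromosome 20, 3046052 to 3048250), also spread widely with palbociclib. Controls were at 68.6, 70.4 and 68.3 CPM and palbociclib libraries at 60.1, 38.8 and 24.8 CPM, with no overlap (log2 -0.74 ± 0.251, edgeR adjusted p = 0.0444). Its call ended under 6 of 14 alternatives, DESeq2 (adjusted p = 0.115) and the omission of any 1 control among them (range 0.00167 to 0.132). Without palbociclib library 3 the value was -0.48.

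Both genes have transcripts rich in G and C. MRPL41, at 66.7%, ranked 1st of the 78 members in the base composition of the canonical GENCODE 44 transcript, and MRPS26, at 61.9%, ranked 8th. Palbociclib library 3 stood 1.48 log2 units below library 1 for MRPL41 and 1.28 below it for MRPS26. Over all tested genes with at least 10 CPM on average, the median of that log2 ratio was 0.02 for transcripts under 45% G and C, -0.06 from 60% to 65%, and -0.32 at 65% or more, the last over 314 genes. AURKAIP1, a small-subunit protein outside the MRP symbols with a GC content of 65.2%, showed 108.2, 86.3 and 56.4 CPM in palbociclib libraries 1, 2 and 3 against 81.0, 84.3 and 84.4 CPM in controls. GC-rich members differed in this. The median log2 ratio of library 3 over library 1 was -0.229 for the 8 members from 60% to 65% G and C. Among these it was -0.53 for MRPL12 (64.6%) and -0.187 for MRPL23, 2nd in GC content at 64.8%. Only MRPL55 (0.007, at 63.7%) and MRPL54 (0.091, at 60.9%) of them lay above 0. Across the 78 members Spearman's rho between GC content and log2 fold change was -0.23, a description over genes that share the same libraries. The part of base composition in these falls was not tested.

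**Figure D4:**
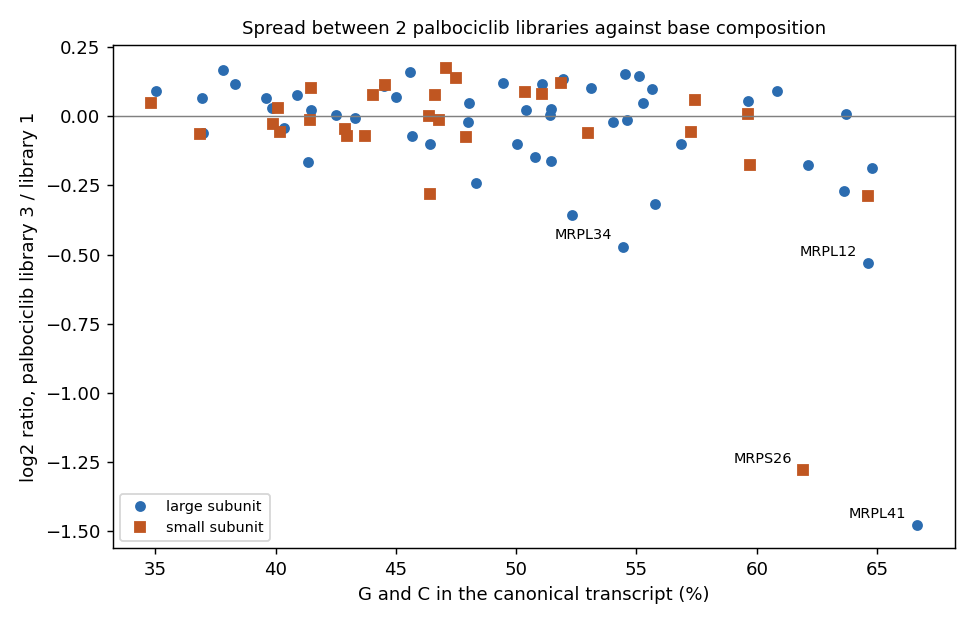
Log2 ratio of palbociclib library 3 over palbociclib library 1 (vertical axis) against the G and C content of the canonical transcript (horizontal axis, percent) for the 78 members. Most points lie near 0, and MRPL41 (66.7% and -1.48) and MRPS26 (61.9% and -1.28) lie far below.

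Falls of the other members were smaller and tighter. MRPS31, of the small subunit (ENSG00000102738, chromosome 13, 40729128 to 40771190), was at 19.7, 17.5 and 20.8 CPM in controls and at 13.9, 14.2 and 13.3 CPM with palbociclib, without overlap (-0.49 ± 0.0922, edgeR adjusted p = 0.00303). Its copies MRPS31P5 and MRPS31P4, looked up after its value was seen, were lower too. MRPS31P5 had 774, 490 and 551 counts in controls and 398, 341 and 283 with palbociclib (-0.76, edgeR adjusted p = 0.0011), and MRPS31P4 had 76, 88 and 67 against 20, 29 and 15 (-1.81, edgeR adjusted p = 0.00428). How reads were divided among these near-identical sequences is uncertain.

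MRPL11, at the base of the stalk, was at 48.9, 52.8 and 52.2 CPM in controls and at 40.1, 41 and 36.2 CPM with palbociclib (-0.39 ± 0.0618, edgeR adjusted p = 0.00114), and shares 119 of 2539 exon bases with PELI3 on the other strand. MRPS31 and MRPL11 were the 2 lower calls of 9 that held in every alternative fit. Other proteins of the stalk gave no call. MRPL10, which anchors the copies of MRPL12, had 63.8 ± 1.80 and 59.9 ± 1.63 CPM (SD, n = 3; edgeR adjusted p = 0.149). MRPL53, near the stalk base, had 12.8 ± 1.13 and 13.2 ± 1.69 CPM (edgeR adjusted p = 0.847), and 544 of its 685 exon bases are shared with a gene on the other strand. MRPL10 was called lower with library size alone and on both FPKM scales (adjusted p from 0.00661 to 0.357).

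MRPL58, a peptidyl-tRNA hydrolase that became part of the large subunit and is known for rescuing stalled ribosomes, was at 44.7, 39.4 and 43.5 CPM in controls and at 36.3, 37.3 and 32.5 CPM with palbociclib (-0.27 ± 0.0726, edgeR adjusted p = 0.0182, range 0.00305 to 0.0774). MRPS30 was at 69.7, 67.7 and 67.7 CPM and at 62.7, 59.3 and 51.5 CPM (-0.24 ± 0.0693, edgeR adjusted p = 0.023, range 0.00373 to 0.0805). MRPS10, of the head of the small subunit, was at 46.2, 43.1 and 42.3 CPM and at 36.6, 37.6 and 39.3 CPM (-0.21 ± 0.0568, edgeR adjusted p = 0.0162, range 0.00187 to 0.069). None of these groups overlapped, and each call was lost in 3 of 14 alternatives, all of them with 1 library left out. MRPS6 was at 17.1, 17.5 and 17.7 CPM and at 14.2, 14.1 and 15.7 CPM (-0.25 ± 0.0837, edgeR adjusted p = 0.0439), a call lost in 8 of 14 alternatives (range 0.00735 to 0.129), DESeq2 and the omission of any 1 control among them. Part of its exons, 265 of 4273 bases, is shared with SLC5A3 on the same strand.

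The 3 MRPS18 genes are related to the same bacterial protein, and their products occupy different sites: MRPS18B and MRPS18C in the small subunit and MRPS18A in the large. MRPS18A was at 45.5, 44.9 and 44.6 CPM in controls and at 63.6, 58.3 and 61.1 CPM with palbociclib, above the controls in every library (0.44 ± 0.0482, edgeR adjusted p = 0.000135). MRPS18B was at 120.2, 112.1 and 111.5 CPM and at 98.1, 100.4 and 106.7 CPM, below them in every library (-0.17 ± 0.0489, edgeR adjusted p = 0.0218). Its call did not hold with the replicate number as a block, without control library 1, and without palbociclib library 1 or 2 (range 0.00176 to 0.0886). MRPS18C was at 18.4, 18.7 and 23.4 CPM and at 19.1, 17.6 and 18.2 CPM, with overlapping groups (-0.14 ± 0.107, edgeR adjusted p = 0.345). The exons of MRPS18A share 705 of 1385 bases with RSPH9, and those of MRPS18C share 1956 of 4866 bases with ABRAXAS1, both on the other strand. MRPS36, the member outside the ribosome, was at 11.1, 10.2 and 12.9 CPM and at 12.8, 15.2 and 13.2 CPM (0.27 ± 0.122, edgeR adjusted p = 0.114).

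Several members start back to back with another gene, most with a short stretch of DNA between both start sites. MRPL13 and MTBP, MRPL43 and TWNK, MRPL51 and NCAPD2, and MRPS34 and EME2 instead overlap at their starts. Starts on opposite strands within 500 bases, in the bounds that the deposited table gives, paired members with 19 named and tested protein-coding neighbours. Of these pairs 4 had both genes higher, 1 had opposite calls, 4 had a higher member beside a neighbour that did not pass, and 4 had no call at all. In the remaining pairs the member named first did not pass, and its neighbour was higher in 3 and lower in 3. Spearman's rho between member and neighbour log2 fold changes was 0.03 over these pairs, which share the same libraries. The intervals of 5 pairs are given here as examples. The calls of the genes on either side differed in 4 of them and were the same in the last. Calls also differed in pairs not shown, among them MRPL30 with MITD1 and MRPL57 with SKA3. Each is the plus strand of hg38, 5′ to 3′, from the base after the minus-strand gene's start to the base before the plus-strand gene's start. Exons in GENCODE 44 cover 11 of the 23 bases between MRPL27 and EME1, and 1 of the 63 between MRPL46 and MRPS11. They cover 0 bases of the other intervals shown. Capitals mark CCAAT, or ATTGG on the other strand, the letters bound by the factor NF-Y. No other motif searched was found in these 5 intervals, but some intervals not shown, such as that of MRPL30 and MITD1, held another. The intervals end at the start sites and are not whole promoters. In the RefSeq promoter windows described below, MRPS12 and MRPL27 had the ETS-family letters CCGGAAG, and MRPL27 also had CCAAT. MRPL36 and MRPL46 had the YY1 motif there, MRPL36 also had the E-box letters CACGTG, and MRPS11 had no motif searched.
SARS2 (minus) to MRPS12 (plus), chr19:38930764-38930943: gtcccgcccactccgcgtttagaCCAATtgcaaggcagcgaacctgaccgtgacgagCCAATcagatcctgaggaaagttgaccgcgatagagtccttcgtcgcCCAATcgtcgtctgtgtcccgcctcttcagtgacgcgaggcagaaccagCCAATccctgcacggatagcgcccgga
MRPL46 (minus) to MRPS11 (plus), chr15:88467390-88467452: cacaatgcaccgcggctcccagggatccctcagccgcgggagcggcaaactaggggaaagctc
MRPL36 (minus) to NDUFS6 (plus), chr5:1801367-1801406: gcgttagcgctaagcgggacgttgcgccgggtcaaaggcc
MRPL27 (minus) to EME1 (plus), chr17:50373197-50373219: gaaaagtttctacttccgctatc
TCP1 (minus) to MRPL18 (plus), chr6:159789704-159789811: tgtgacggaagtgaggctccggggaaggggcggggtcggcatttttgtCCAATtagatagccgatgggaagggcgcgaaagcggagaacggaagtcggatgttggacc

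MRPS12 rose while SARS2, the mitochondrial seryl-tRNA synthetase that starts 180 bases away, was at 34, 34 and 34 CPM in controls and at 30.7, 31 and 32.2 CPM with palbociclib (-0.12 ± 0.0531, edgeR adjusted p = 0.11). The ratio of MRPS12 to SARS2 was 1.23, 1.21 and 1.16 in controls and 2.12, 2.22 and 2.04 with palbociclib, with no overlap. Between them lie 4 copies of CCAAT.

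MRPL46 and MRPS11 are both members and lie 63 bases apart. MRPS11, of the small subunit, was at 39.3, 39.2 and 39.5 CPM in controls and at 51.9, 46.6 and 55.1 CPM with palbociclib (0.38 ± 0.0647, edgeR adjusted p = 0.0017). MRPL46, of the large subunit, was at 20.9, 20.5 and 20.1 CPM and at 17.9, 20.2 and 19.6 CPM (-0.09 ± 0.0784, edgeR adjusted p = 0.399), and shares 724 of its 6402 exon bases with another gene on the same strand. The ratio of MRPS11 to MRPL46 was 1.88, 1.92 and 1.97 in controls and 2.91, 2.31 and 2.81 with palbociclib, again without overlap.

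MRPL27, which lines the peptidyl transferase region of the large subunit, rose from 34.1, 33.9 and 29.7 CPM to 41.1, 44.3 and 45.7 CPM (0.42 ± 0.0715, edgeR adjusted p = 0.00165). EME1, a subunit of a DNA repair nuclease that starts 23 bases away, fell from 25, 23.9 and 23.9 CPM to 18.7, 17.2 and 19.7 CPM (-0.39 ± 0.0778, edgeR adjusted p = 0.00422). NDUFS6, a complex I subunit beside MRPL36, was at 40.6 CPM on average in controls and 41.9 CPM with palbociclib (0.04 ± 0.0998, edgeR adjusted p = 0.772). MRPL18, which also carries 5S rRNA into mitochondria, and TCP1, a chaperonin subunit, were both higher, at 0.29 and 0.15 (edgeR adjusted p = 0.000811 and 0.0146). With 3 libraries against 3, the smallest exact two-sided permutation p for a single ratio is 0.10, and no test of the ratios was made.

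**Figure D5:**
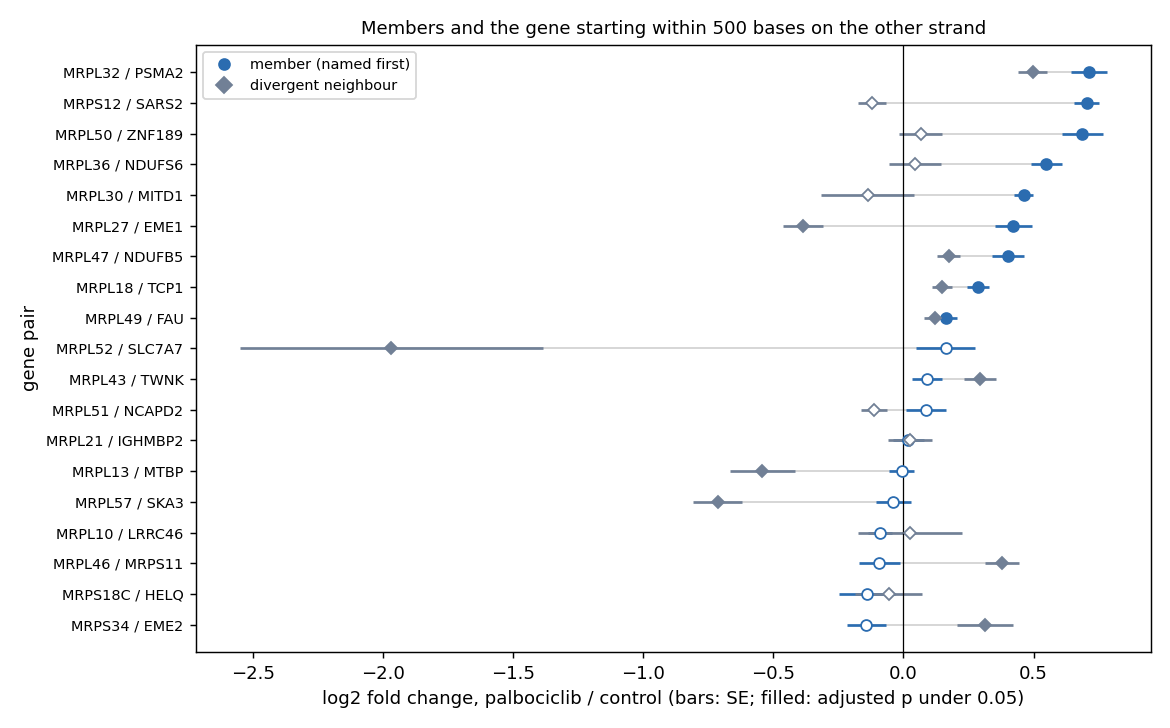
Log2 fold change (horizontal axis, bars are SE) of members (circles) and of the gene that starts within 500 bases on the other strand (diamonds), 1 pair per row, filled where the adjusted p was under 0.05. MRPS12 at 0.70 lies beside SARS2 at -0.12, MRPL27 at 0.42 beside EME1 at -0.39, and MRPL57 at -0.04 beside SKA3 at -0.71.

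RefSeq promoter windows on GRCh38.p14, from 250 bases before to 50 after a gene's start, were matched by symbol for 69 of the 78 members. The ETS-family letters CCGGAAG, which the respiratory gene regulator GABPA can bind, were found on either strand in 42% of these windows and in 10.7% of all 27305. The YY1 motif was in 18.8% of members and 1.28% of all. The full NRF1 palindrome was in 1.45% of members and 1.36% of all, and the shorter GCATGCGC, which it contains, in 8.7% and 3.27%. TATAAA was in 2.9% of members and 12% of all windows. By call, CCGGAAG was in 9 of 24 windows of higher members, 4 of 9 of lower members and 16 of 36 of members not called. CCAAT was in 11 of 24, 2 of 9 and 7 of 36, against 35.7% of all windows. The ATF4 composite element TGATGNAA was in 1 of 69 and the CRE letters TGACGTCA in 0 of 69, against 3.67% and 1.98% of all. Matches of letters are a description and not evidence of binding.

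Of 13 regulators tested, 5 were lower and 1 higher, with a median of -0.18. As shares, 38.5% were lower and 7.69% higher, against 18.5% and 20.1% of all genes tested. The list holds regulators of nuclear genes for mitochondria, and the mitochondrial DNA factors TFAM, TFB2M and POLRMT. TFB2M was the 1 called higher (0.22, edgeR adjusted p = 0.00911). NRF1, a transcription factor of nuclear respiratory genes, fell from 22.8 ± 0.253 to 13.9 ± 1.18 CPM (SD, n = 3; -0.72 ± 0.0875, edgeR adjusted p = 0.000245). GABPB1, the activating partner of GABPA, fell from 29.7 ± 3.58 to 19.8 ± 1.06 CPM (-0.59 ± 0.0961, edgeR adjusted p = 0.0014). SP1 and YY1, transcription factors with sites in many promoters, fell by 0.51 and 0.34 on the log2 scale. GABPA itself, named after its value was seen, had 50.4 ± 5.86 and 46.4 ± 4.21 CPM (-0.12 ± 0.0928, edgeR adjusted p = 0.36).

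Of the 5 mitoribosome proteins that carry no MRP symbol, 3 were higher, where 20.1% of all genes tested were. PTCD3, a pentatricopeptide protein of the small subunit, rose by 0.33 ± 0.0413 (edgeR adjusted p = 0.000318), DAP3, a GTP-binding protein of the small subunit, by 0.24 ± 0.0364 (adjusted p = 0.000982), and CHCHD1, also of the small subunit, by 0.39 ± 0.0875 (adjusted p = 0.00777). AURKAIP1 (0.01 ± 0.187, adjusted p = 0.979) and GADD45GIP1 of the large subunit (-0.19 ± 0.102, adjusted p = 0.191) did not pass. The rRNA of the large subunit, MT-RNR2, was at 9347, 9773 and 10760.0 CPM in controls and at 12160.0, 12760.0 and 12670.0 CPM with palbociclib (0.33 ± 0.0512, edgeR adjusted p = 0.000996). That of the small subunit, MT-RNR1, was at 1483, 1490.0 and 1530.0 CPM and at 1505, 1583 and 1522 CPM, with overlapping groups (0.03 ± 0.0342, adjusted p = 0.479). Libraries were poly(A)-selected, so these values need not give the amounts of rRNA. The difference between both rRNAs was not tested.

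Of 30 assembly factors tested, 10 were higher and 3 lower (median 0.09). TRUB2 (0.39 ± 0.0387), a pseudouridine synthase, RBFA (0.53 ± 0.0546), which helps mature the small subunit, MTERF4 (0.38 ± 0.0411), which brings an rRNA methyltransferase to the large subunit, and RCC1L (0.40 ± 0.0485) rose with edgeR adjusted p-values from 7.41e-05 to 0.000247. Among 17 translation factors 5 were higher and 3 lower (median 0.15). As shares, 33.3% of assembly factors and 29.4% of translation factors were higher, and 10% and 17.65% lower. Over all genes tested, 20.1% were higher and 18.5% lower. Elongation factor GFM1 rose by 0.27, the recycling factor GFM2 by 0.51 and OXA1L, which inserts new proteins into the inner membrane, by 0.32, while initiation factor MTIF2 fell from 64.1 ± 2.32 to 48.8 ± 2.70 CPM (-0.39 ± 0.0548, edgeR adjusted p = 0.00054).

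Cytosolic ribosomal protein genes, taken by symbol, numbered 80. Of these 9 were higher and 13 lower (median 0.00), against 27 and 9 of 78 members, and the difference between both sets was not tested. The cytosolic shares were 11.25% higher and 16.25% lower, against 20.1% and 18.5% of all genes tested. Libraries of a group agreed closely for the members: the coefficient of variation had a median of 4.18% in controls and 4.23% with palbociclib, against 5.01% and 4.39% for the 8965 tested genes in the same range of CPM. The highest value among members was 48.4%, for MRPL41 with palbociclib.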

How the data were processed

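Polyadenylated RNA of 6 LNCaP libraries was analysed, 3 per group. Per the submitters' processing notes and the series' design text, reads were trimmed (cutadapt 1.9 in the notes, fastp in the design text), aligned to hg38 with HISAT2 2.0.4 and quantified with StringTie 1.3.4d after merging of the samples' assemblies. The authors deposited estimated counts and FPKM for 35430 genes. The deposited estimated counts were whole already and were used as such. Low counts were more often 4 than 3 or 5 in every library (1323 against 691 and 470 genes in control library 1), so several counts may stand for 1 fragment. Printed counts and totals may then overstate the fragments behind them, and division by 4 was run as an alternative. Strand handling and the annotation release are not given in the sources used here. No value column was without a sample.

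Counts were filtered with filterByExpr (minimum count 10, total 15; 21218 genes kept), scaled by TMM and tested with edgeR 4.0.16 on all genes, without a replicate block. SE is the absolute log2 fold change over the square root of F. Levels in CPM are TMM-scaled. DESeq2 1.42.0 and limma 3.58.1 (log2(FPKM + 1) and log2(FPKM + 0.1)) served as alternatives. Scripts were tested on simulated counts. Exon overlaps were taken from GENCODE 44, against listed genes with at least 60 counts in all. Named were the 8 largest rises and falls past the threshold, the MRPS18 genes, MRPS30, MRPS36, MRPL58, stalk proteins, the 5 highest and 3 lowest members by FPKM, and up to 4 genes per pathway list. The class of MRPS18B was varied after the data were seen. The members, lists, motifs and gene pairs were chosen with earlier results of these data known. Precision is set by 3 libraries per group, and floors or intervals were not needed at these counts.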

Additional observations from a re-analysis of the deposited data

How the results depend on the processing

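No alternative turned the direction of a called member. MRPS27, not called at 0.00, was lower with library size alone (-0.11, adjusted p = 0.0295). The number of lower members was 9, and 18 when scaled by library size and 16 by limma with log2(FPKM + 1) and on log2(FPKM + 0.1). Lower MRPL genes numbered 3, and 9, 8 and 8 in these fits. Their medians moved to -0.0594, -0.0707 and -0.0715 for MRPL genes (from 0.052) and to -0.0627, -0.049 and -0.0545 for MRPS genes (from 0.0488). Genes of the pathway lists had 20 higher and 11 lower calls together, with 22 lower for library size alone, 13 higher and 20 lower on log2(FPKM + 1), and 13 and 21 on log2(FPKM + 0.1). Without the 35 members whose exons overlap another gene, 17 members were higher, 4 of them MRPS genes, with medians of 0.162 (MRPL) and 0.0839 (MRPS) and a difference of 0.0782. Leaving out 1 library gave 24 to 32 higher and 3 to 8 lower members, 2 to 4 lower MRPL and 1 to 6 lower MRPS genes, medians of 0.0313 to 0.0927 (MRPL) and 0.0254 to 0.1015 (MRPS), and differences between them of -0.0132 to 0.0396. For genes with a bacterial counterpart the lower count of 3 became 7, 6 and 6 with library size alone and on both FPKM scales and 1 to 3 with 1 library left out, and for mitochondrion-specific genes 6 became 11, 10 and 10, and 2 to 6. Fewer libraries enter the fits with 1 left out. The other causes were not tested. MRPS18B counted with the bacterial-type genes, a choice made after seeing the data, gave 4 and 5 lower. The replicate block gave 26 higher and 7 lower members. Same-numbered libraries showed no shared deviation from their group means (correlations -0.008, -0.034 and -0.031). Whether the numbers mark a shared culture or day is not stated, and these correlations cannot decide it. A minimum count of 40 and counts divided by 4 gave 27 and 10 each.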
